A study of Bos taurus with 50 samples.

Results

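Bovine endometrium changes its gene expression with the ovarian cycle. After ovulation the corpus luteum (CL) secretes progesterone (P4), and once the CL regresses the endometrium is exposed to follicular estradiol with little P4. OSR1, RND2, TOX, AGTPBP1 and RASA3 are 5 genes that were chosen by their low read counts in 4 libraries of week 5. These came from cows labelled as cycling without progesterone, which had low P4 at the week 5 biopsy. The 5 genes are among the 18830 genes of the read count table, and all 5 were among the 16120 genes that passed the filter on low counts. OSR1 (ENSBTAG00000008113) encodes an odd-skipped zinc finger transcription factor of embryonic mesenchyme and the urogenital tract. RND2 (ENSBTAG00000007393) encodes an atypical small GTPase that stays bound to GTP and acts on the cytoskeleton. TOX (ENSBTAG00000004954) encodes a nuclear HMG-box protein best known from developing and exhausted T cells. AGTPBP1 (ENSBTAG00000001257) encodes a cytosolic carboxypeptidase that removes glutamate residues from tubulin. RASA3 (ENSBTAG00000019967) encodes a GTPase-activating protein that switches off Ras and Rap1.

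Endometrium of primiparous Holstein x Jersey dairy cows was biopsied at week 5 and week 9 after calving, and 50 mRNA libraries were sequenced. CycW5 cows had a CL and circulating P4 at week 5 (10 libraries at week 5 and 10 at week 9), and NoCycW5 cows had follicles but no CL and no detectable P4 up to that time (12 and 11 libraries). The cows called CycNoP4 here (4 and 3 libraries) had high P4 in the preceding week and low P4 at the week 5 biopsy, some without a CL and others with a CL holding a large cavity; the labels do not say which library is which, and the study left these cows out. No cow was treated before week 5, and every cow then received GnRH, a P4 insert and prostaglandin so that the week 9 biopsy fell in the luteal phase of a synchronized cycle. The labels do not tie libraries to cows, so weeks were compared as unpaired groups. Each library keeps the number given in its label.

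Counts on genes ranged from 21592867 to 32813237 per library. Values are CPM, the count of a gene per 1e6 counts of the library after TMM scaling, and levels of different genes were not compared because the table gives no gene lengths. On the first principal component (PC1, 31.6% of the variance) of all tested genes other than the 5, all NoCycW5 libraries of week 5 lay between 33.05 and 70.99 and the 4 CycNoP4 libraries of week 5 between 35.8 and 52.5. In addition, 5 libraries of other groups lay at 45.2 to 73.6, beyond the lowest NoCycW5 library of week 5: library 57 (CycW5, week 5), libraries 87 and 89 (CycW5, week 9) and libraries 76 and 91 (NoCycW5, week 9). These 5 libraries are called apart in the text. The rule picks libraries that resemble the NoCycW5 libraries of week 5 on PC1, which the 5 genes follow to differing degrees. Leaving them out thus tends to widen differences from NoCycW5 cows at week 5. Calls kept or gained in this way are not independent support. Fold changes between groups at week 9 and between weeks in CycW5 and NoCycW5 cows are given with and without them. For CycW5 against NoCycW5 cows at week 5, and for their difference in change between weeks, only calls are given both ways. Fold changes of CycNoP4 against CycW5 cows at week 5 include library 57. No library was a repeat of another, as the mean chi-square per gene was at least 28.6 in each of 1225 pairs.

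RND2 was lower in the CycNoP4 cows of week 5 than in both other groups. In the CycNoP4 libraries of week 5, RND2 was at 2.51, 2.01, 2.38 and 4.49 CPM in libraries 51, 56, 58 and 64. These values rest on 66, 61, 63 and 133 reads, and their exact 95% Poisson intervals, which cover counting error only, were 1.94 to 3.19, 1.54 to 2.59, 1.83 to 3.04 and 3.76 to 5.32 CPM. Library 64 thus stood above the other three by more than counting error. RND2 ranged from 8.30 to 15.4 CPM (median 11.4) in the CycW5 libraries of week 5 and from 4.09 to 9.57 CPM (median 8.14) in the NoCycW5 libraries. All 4 CycNoP4 libraries lay below all 10 CycW5 libraries, whereas 2 of the 12 NoCycW5 libraries (47 and 68) were no higher than library 64. The fitted log2 fold change was -2.02 ± 0.32 (SE) against CycW5, or 4.05-fold lower, and -1.39 ± 0.31 against NoCycW5, or 2.63-fold lower.

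TOX had the same order of groups. It was at 5.58, 5.12, 10.2 and 8.48 CPM in libraries 51, 56, 58 and 64, compared with 13.5 to 40.8 CPM (median 30.5) in CycW5 and 9.87 to 28.1 CPM (median 19.2) in NoCycW5 cows. The CycNoP4 libraries lay below all CycW5 libraries, and 1 NoCycW5 library (48) was within their range. The log2 fold change was -2.03 ± 0.38 against CycW5 (4.09-fold lower) and -1.37 ± 0.36 against NoCycW5 (2.58-fold lower).

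OSR1 was far below the CycW5 level and closer to the NoCycW5 level. The 4 CycNoP4 libraries had 8.78, 8.68, 6.01 and 7.43 CPM, CycW5 libraries 21.1 to 124 CPM (median 82.8) and NoCycW5 libraries 8.16 to 22.3 CPM (median 15.2). No CycW5 library and 1 NoCycW5 library (44) reached down to the CycNoP4 values. The log2 fold change was -3.39 ± 0.70 against CycW5 (10.5-fold lower) and -0.96 ± 0.59 against NoCycW5 (1.95-fold lower).

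AGTPBP1 was low only in relation to the CycW5 cows. It was at 30.7, 25.98, 24.5 and 36.4 CPM in the CycNoP4 libraries, 34.4 to 133 CPM (median 113) in CycW5 and 22.5 to 39.2 CPM (median 30.8) in NoCycW5 libraries. Of the NoCycW5 libraries, 10 of 12 were at or below the highest CycNoP4 library, and so was library 57, the CycW5 library apart on PC1. The log2 fold change was -1.87 ± 0.38 against CycW5 (3.65-fold lower) and -0.06 ± 0.33 against NoCycW5.

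RASA3 was low only in relation to the NoCycW5 cows, the reverse of AGTPBP1. Its CycNoP4 values were 76.3, 70.6, 127 and 112 CPM, against 58.6 to 126 CPM (median 71.0) in CycW5 and 128 to 217 CPM (median 166) in NoCycW5 libraries. The CycNoP4 libraries were below every NoCycW5 library, although library 58 lay just under the lowest of them, and none of the 10 CycW5 libraries exceeded library 58. The log2 fold change was 0.29 ± 0.30 against CycW5 and -0.81 ± 0.31 against NoCycW5 (1.75-fold lower). Libraries 51 and 56 had less TOX and less RASA3 than libraries 58 and 64, but OSR1 was higher in the first pair.

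These week 5 differences of the CycNoP4 cows were used to choose the 5 genes and were therefore not tested. By the values given, RND2, TOX and OSR1 were lower than the medians of both groups, AGTPBP1 differed little from NoCycW5 cows and RASA3 was not lower than in CycW5 cows. All CycNoP4 libraries of week 5 lay below all CycW5 libraries for 3 of the 5 genes (OSR1, RND2 and TOX), as for 1.53% of all tested genes, and below all NoCycW5 libraries for 1 (RASA3), as for 0.403%. None of the 5 was below all 22 other week 5 libraries, as 0.0806% of tested genes were. Over all genes, with all 4 CycNoP4 libraries, 17.9% passed a Benjamini-Hochberg (BH) adjusted P of 0.05 for CycNoP4 against CycW5 cows and 16.4% for CycNoP4 against NoCycW5 cows. These 2887 and 2650 genes became 1111 and 153 without library 51, 1571 and 853 without library 56, 1812 and 1720 without library 58, and 4342 and 4775 without library 64. By the ranking of fitted fold changes from the lowest, OSR1 was 101st, TOX 318th, RND2 320th and AGTPBP1 371st of 16120 genes against CycW5, and RND2 362nd, TOX 379th, OSR1 926th and RASA3 1293rd against NoCycW5 cows.

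**Figure D1:**
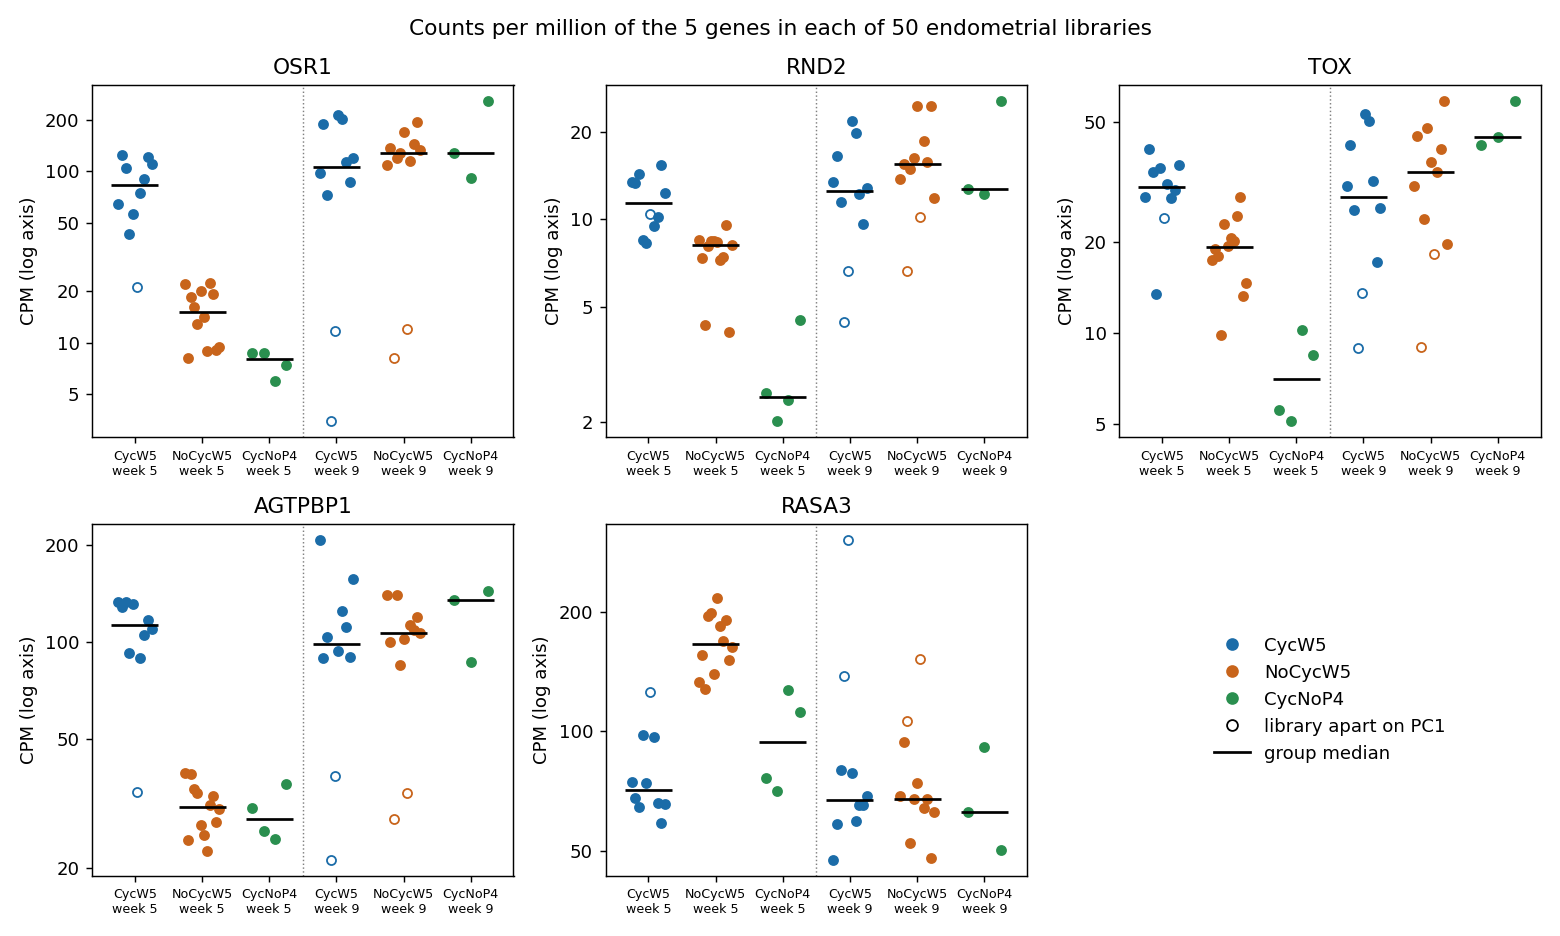
CPM (log axis) of OSR1, RND2, TOX, AGTPBP1 and RASA3 in each of the 50 libraries by cyclicity group and week; points are libraries, open points are the 5 libraries apart on PC1 and black lines are group medians. RND2 and TOX have their lowest medians (2.44 and 7.03 CPM) in the CycNoP4 cows at week 5, AGTPBP1 is as low in NoCycW5 cows (median 30.8 CPM) and RASA3 is highest in NoCycW5 cows (median 166 CPM).

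Biopsies hold several cell types, and in such samples fewer cells of a type cannot be told apart from less RNA per cell. Identifiers were matched for 7 of 60 marker genes, all among genes that the study called in some comparison on part of these libraries. Their differences between groups are therefore not independent evidence, and they do not stand for the whole lists. The summed level of the 4 matched markers of the 8 on the epithelial list (EPCAM, KRT8, CLDN3 and CLDN4) was 479 to 940 CPM in the CycNoP4 libraries of week 5, 359 to 1282 CPM in CycW5 and 235 to 476 CPM in NoCycW5 libraries. Of these 4, EPCAM (0.87 ± 0.30, BH P = 0.0411) and KRT8 (0.92 ± 0.17, BH P = 7.40e-04) were higher in CycNoP4 than in NoCycW5 cows, and CLDN3 was lower than in CycW5 cows (-1.09 ± 0.39, BH P = 0.0456), all as log2 fold changes. PDGFRA, the 1 matched marker of the 8 on the stromal list, was at 269 to 727, 280 to 711 and 315 to 669 CPM in the CycNoP4, CycW5 and NoCycW5 libraries, so the groups overlapped. The 2 matched markers of the 6 on the endothelial list, CDH5 and VWF, summed to 223 to 361, 150 to 310 and 218 to 589 CPM. The part of cell composition in the levels of the 5 genes was not tested, and ciliated, smooth muscle, immune and proliferation markers were not analysed here.

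CycW5 and NoCycW5 cows were then compared at week 5. The genes were chosen as low in relation to the week 5 libraries of both groups, so this comparison and those between weeks are not free of the choice, and nothing is read from the number of genes called. All 5 genes were called, against 25.6% of all tested genes. OSR1 was 5.38-fold higher in CycW5 cows (log2 fold change 2.43 ± 0.42, BH P = 2.85e-05) and AGTPBP1 3.49-fold higher (1.80 ± 0.25, BH P = 5.16e-07). RND2 (0.63 ± 0.21, BH P = 0.0224) and TOX (0.66 ± 0.24, BH P = 0.0376) were higher by a smaller margin, 1.54-fold and 1.58-fold. RASA3 was lower in CycW5 cows (-1.09 ± 0.23, BH P = 3.29e-04). The values of AGTPBP1 in the other 9 CycW5 libraries (89.0 to 133 CPM) did not overlap those of the NoCycW5 cows, and library 57 had 34.4 CPM. OSR1 was at 42.9 to 124 CPM in the same 9 libraries and at 21.1 CPM in library 57. Without the libraries apart, all 5 remained called (36.2% of genes), which follows in part from the rule that set them apart. In the same comparison, all 4 matched epithelial markers were higher in CycW5 cows (log2 fold changes of 0.71 to 1.93). Both matched endothelial markers were lower (-0.44 and -0.81). These markers were matched because the study called them in some comparison, so their directions are not independent evidence. Their part in the levels of the 5 genes was not tested. AGTPBP1 and RASA3 are listed by the study for this comparison on part of these libraries, so their direction is not independent evidence. The call of TOX was lost when any 1 of libraries 13, 45, 54, 70, 48, 68 and 69 was left out (BH P up to 0.0649) and with limma-voom (BH P = 0.0577).

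At week 9, in libraries other than the 4 whose low values chose the genes, no difference of the CycNoP4 cows was detected for any of the 5 genes. OSR1 was at 129, 92.1 and 257 CPM in libraries 79, 88 and 94, and RND2 at 12.7, 12.2 and 25.6 CPM. Library 94 had the highest value of both genes among all 50 libraries. TOX was at 41.9, 44.7 and 58.7 CPM, AGTPBP1 at 135, 86.4 and 144 CPM, and RASA3 at 62.7, 91.0 and 50.3 CPM. The 3 libraries were within the range of the other week 9 libraries for AGTPBP1 and RASA3.

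Against CycW5 cows at week 9, the log2 fold changes of CycNoP4 cows were 0.52 ± 0.61 for OSR1, 0.39 ± 0.31 for RND2, 0.69 ± 0.36 for TOX, 0.23 ± 0.37 for AGTPBP1 and -0.50 ± 0.35 for RASA3, with BH P of 0.662 to 0.950. Against NoCycW5 cows they were 0.46 ± 0.60, 0.10 ± 0.31, 0.55 ± 0.36, 0.32 ± 0.36 and -0.20 ± 0.34, with BH P of 0.879 to 0.957. The 95% intervals against CycW5 and NoCycW5 cows were -0.22 to 0.99 and -0.51 to 0.71 for RND2, and -0.005 to 1.39 and -0.15 to 1.24 for TOX. Without the libraries apart, the log2 fold changes against CycW5 cows were 0.22 for OSR1, 0.19 for RND2, 0.49 for TOX, -0.002 for AGTPBP1 and 0.06 for RASA3, and those against NoCycW5 cows -0.03 to 0.38, with none called. The positive values of OSR1 and RND2 rest on library 94, since without it they were -0.01 and -0.05 against CycW5 and -0.06 and -0.33 against NoCycW5 cows. edgeR called 0% of all genes in each week 9 comparison of CycNoP4 cows, where 1257 and 782 genes had an unadjusted P under 0.05, and DESeq2 called 19 and 13 genes. None of the 5 genes was below all 21 other libraries at week 9 in the CycNoP4 cows, as 0.0558% of genes were.

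CycW5 and NoCycW5 cows did not differ detectably at week 9 either. The log2 fold changes were -0.06 ± 0.42 for OSR1, -0.29 ± 0.21 for RND2, -0.15 ± 0.25 for TOX, 0.08 ± 0.25 for AGTPBP1 and 0.31 ± 0.23 for RASA3 (BH P of 0.871 to 0.992). edgeR called 0% of all genes, 934 genes had an unadjusted P under 0.05, and DESeq2 called 15. Both groups were spread widely by the 4 libraries apart. OSR1 was at 3.50 to 11.7 CPM in libraries 87 and 89 and at 72.8 to 212 CPM in the other 8 CycW5 libraries, and at 8.17 to 12.1 CPM in libraries 76 and 91 and at 109 to 193 CPM in the other 9 NoCycW5 libraries. AGTPBP1 was at 21.2 to 38.5 CPM in the 4 libraries and at 84.7 to 207 CPM in the remaining 17. RASA3 was at 106 to 304 CPM in the 4 and at 47.4 to 94.1 CPM in the rest. These levels overlapped those of NoCycW5 cows at week 5 for all 3 genes. Library 87 was also within the CycNoP4 range of week 5 for RND2 (4.44 CPM) and TOX (8.91 CPM), and library 76 for TOX (8.97 CPM). Without the 4 libraries, the log2 fold changes between the groups were -0.23 to 0.12 and none of the 5 genes was called.

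The weeks were compared within each group. In NoCycW5 cows, all 5 genes were called, against 34.4% of all genes. OSR1 rose 7.68-fold (log2 fold change 2.94 ± 0.42, BH P = 1.21e-06), AGTPBP1 3.18-fold (1.67 ± 0.24, BH P = 1.42e-06), RND2 2.09-fold (1.07 ± 0.20, BH P = 7.38e-05) and TOX 1.74-fold (0.80 ± 0.24, BH P = 0.00733). RASA3 fell 2.16-fold (-1.11 ± 0.22, BH P = 1.13e-04). Without the libraries apart, all 5 were called (46.3% of genes), with log2 fold changes of 3.21, 1.88, 1.21, 0.98 and -1.34 in the same order. The larger changes follow in part from the rule that set those libraries apart. All 4 matched epithelial markers also rose between the weeks in NoCycW5 cows (log2 fold changes of 1.09 for EPCAM, 0.63 for KRT8, 1.89 for CLDN3 and 2.83 for CLDN4). Of the endothelial markers, VWF fell (-0.63, BH P = 0.00787) and CDH5 had -0.10 ± 0.14 (BH P = 0.582). These markers were matched because the study called them in some comparison, so their directions are not independent evidence. Their part in the changes of the 5 genes was not tested. The study lists all 5 genes for this comparison on part of these libraries, and the symbols of the genes were taken from such lists. In CycW5 cows, none of the 5 was called, against 0.124% of all genes, and the log2 fold changes were between -0.05 ± 0.25 for AGTPBP1 and 0.45 ± 0.43 for OSR1 (BH P of 0.614 to 0.992). Without the libraries apart, they were between -0.17 for RASA3, which had 0.29 with them, and 0.64 for OSR1, and none was called (0.268% of genes).

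The difference between the changes of NoCycW5 and CycW5 cows was tested itself, and 4 of the 5 genes were called, against 7.66% of all genes. It was 2.49 ± 0.59 for OSR1 (BH P = 0.00663), 1.72 ± 0.35 for AGTPBP1 (BH P = 0.00179), 0.91 ± 0.30 for RND2 (BH P = 0.0473) and -1.40 ± 0.32 for RASA3 (BH P = 0.00465) on the log2 scale. For TOX it was 0.81 ± 0.35 (BH P = 0.126). With limma-voom, the calls of OSR1 (BH P = 0.0536) and RND2 (BH P = 0.0633) were lost. The call of RND2 was also lost when any 1 of 27 of the 43 libraries was left out (BH P up to 0.0800). Without the libraries apart, all 5 were called (13.9% of genes), TOX with BH P = 0.0496, which follows in part from the rule that set them apart.

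In the CycNoP4 cows, the rise follows in part from the choice of the genes and was not tested. Between the weeks, the log2 fold change was 4.37 ± 0.80 for OSR1 (20.6-fold), 2.72 ± 0.44 for TOX (6.59-fold), 2.56 ± 0.38 for RND2 (5.91-fold), 2.05 ± 0.44 for AGTPBP1 (4.15-fold) and -0.50 ± 0.40 for RASA3. For OSR1, RND2, TOX and AGTPBP1, all 3 libraries of week 9 were above all 4 of week 5, as for 14% of all genes. For RASA3 the weeks overlapped.

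**Figure D2:**
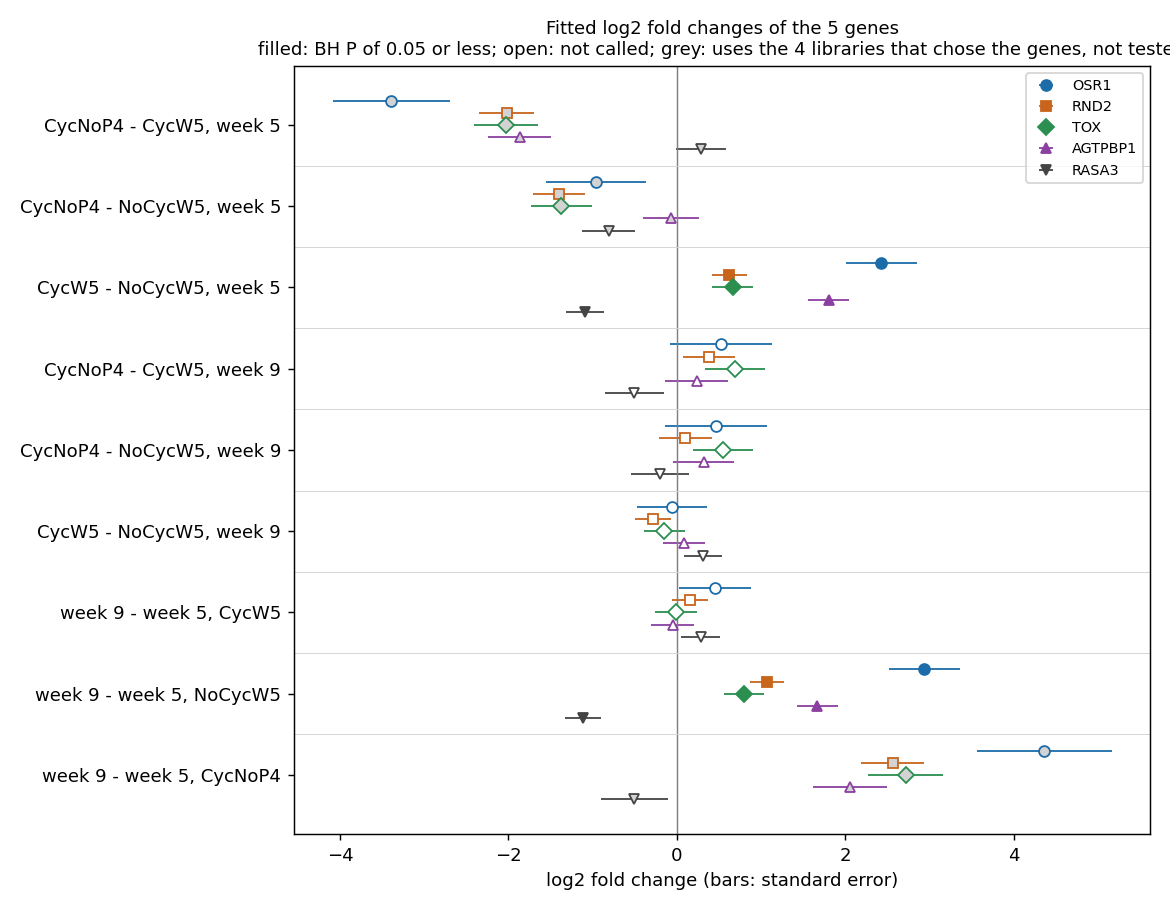
Fitted log2 fold changes (x axis) with standard errors (bars) of the 5 genes in 9 comparisons (rows); filled symbols have a BH P of 0.05 or less, open symbols do not, and grey symbols are comparisons that use the 4 libraries that chose the genes and were not tested. All 5 genes are filled for CycW5 against NoCycW5 cows at week 5 and for week 9 against week 5 in NoCycW5 cows, and none in the 3 comparisons of groups at week 9.

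By the group medians, RND2 and TOX were lowest in the CycNoP4 cows at week 5, next lowest in the NoCycW5 cows at week 5, and higher in the other 4 groups. For RND2 those medians were 11.4 CPM (CycW5, week 5), 12.5 CPM (CycW5, week 9), 12.7 CPM (CycNoP4, week 9) and 15.6 CPM (NoCycW5, week 9), and these groups overlapped. For TOX they were 28.3 CPM (CycW5, week 9), 30.5 CPM (CycW5, week 5), 34.2 CPM (NoCycW5, week 9) and 44.7 CPM (CycNoP4, week 9), and the ranges overlapped except that the CycNoP4 libraries of week 9 were all above the CycW5 libraries of week 5. OSR1 had medians of 8.06 and 15.2 CPM in the CycNoP4 and NoCycW5 cows of week 5, then 82.8, 106, 129 and 129 CPM in CycW5 cows at week 5 and week 9 and in NoCycW5 and CycNoP4 cows at week 9. AGTPBP1 had 2 levels, with medians of 28.3 and 30.8 CPM in the CycNoP4 and NoCycW5 cows of week 5 and of 98.7 to 135 CPM in the other 4 groups. RASA3 had another order, with the highest median in NoCycW5 cows at week 5 (166 CPM). The median was 94.1 CPM in CycNoP4 cows at week 5 and 62.7 to 71.0 CPM in the other 4 groups.

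Whether the genes vary together was examined in the CycW5 and NoCycW5 libraries, with log2 CPM centred on the group means. There were 10 pairs of genes at each of 2 weeks, tested by 100000 permutations within groups. BH adjustment was over these 20 relations with all libraries and, separately, over the 20 without the libraries apart. The week 5 values with n = 22 were thus adjusted together with the 10 week 9 relations that include the libraries apart, which all passed by r. At week 9 without the 4 libraries apart (n = 17), RND2 and TOX had Pearson's r = 0.821 and Spearman's rs = 0.858 (permutation P = 0.00019 and 0.0001, BH P = 0.0019 and 0.002). OSR1 had r = 0.823 with RND2 (rs = 0.733, permutation BH P = 0.0019 and 0.0161) and r = 0.737 with TOX (rs = 0.762, permutation BH P = 0.00753 and 0.0122). Without the 2 libraries farthest from the median, these r were 0.742, 0.732 and 0.631. The other 7 pairs, all with AGTPBP1 or RASA3, had r between -0.508 and 0.0327, and none passed the adjusted threshold. No pooled r is given for week 9 with the libraries apart, which form a cluster of their own.

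At week 5 (n = 22), 3 pairs passed the adjusted threshold by r. These were OSR1 with AGTPBP1 (r = 0.742, rs = 0.528, permutation P = 0.00115 and 0.0142, BH P = 0.00256 and 0.0406), OSR1 with RASA3 (r = -0.636, rs = -0.583, permutation P = 0.00361 and 0.0069, BH P = 0.0062 and 0.0276) and AGTPBP1 with RASA3 (r = -0.670, rs = -0.506, permutation P = 0.00267 and 0.0189, BH P = 0.00534 and 0.042). Without library 57 (n = 21), none of the 10 pairs passed, and r was 0.518, -0.443 and -0.439 for these 3 pairs (permutation BH P = 0.104, 0.117 and 0.117). The corresponding rs were 0.484, -0.486 and -0.382 (permutation P = 0.0326, 0.0311 and 0.0954, BH P = 0.109, 0.109 and 0.239). The calls of these 3 relations thus needed library 57, although rs of the 2 relations of OSR1 changed by less than 0.1. OSR1 and RND2 passed by rank only (r = 0.399, rs = 0.548, permutation BH P = 0.0851 and 0.0406), and not without library 57 (permutation BH P = 0.117 and 0.0703). RND2 and TOX had r = 0.379 at week 5 (rs = 0.355, permutation BH P = 0.110 and 0.140).

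**Figure D3:**
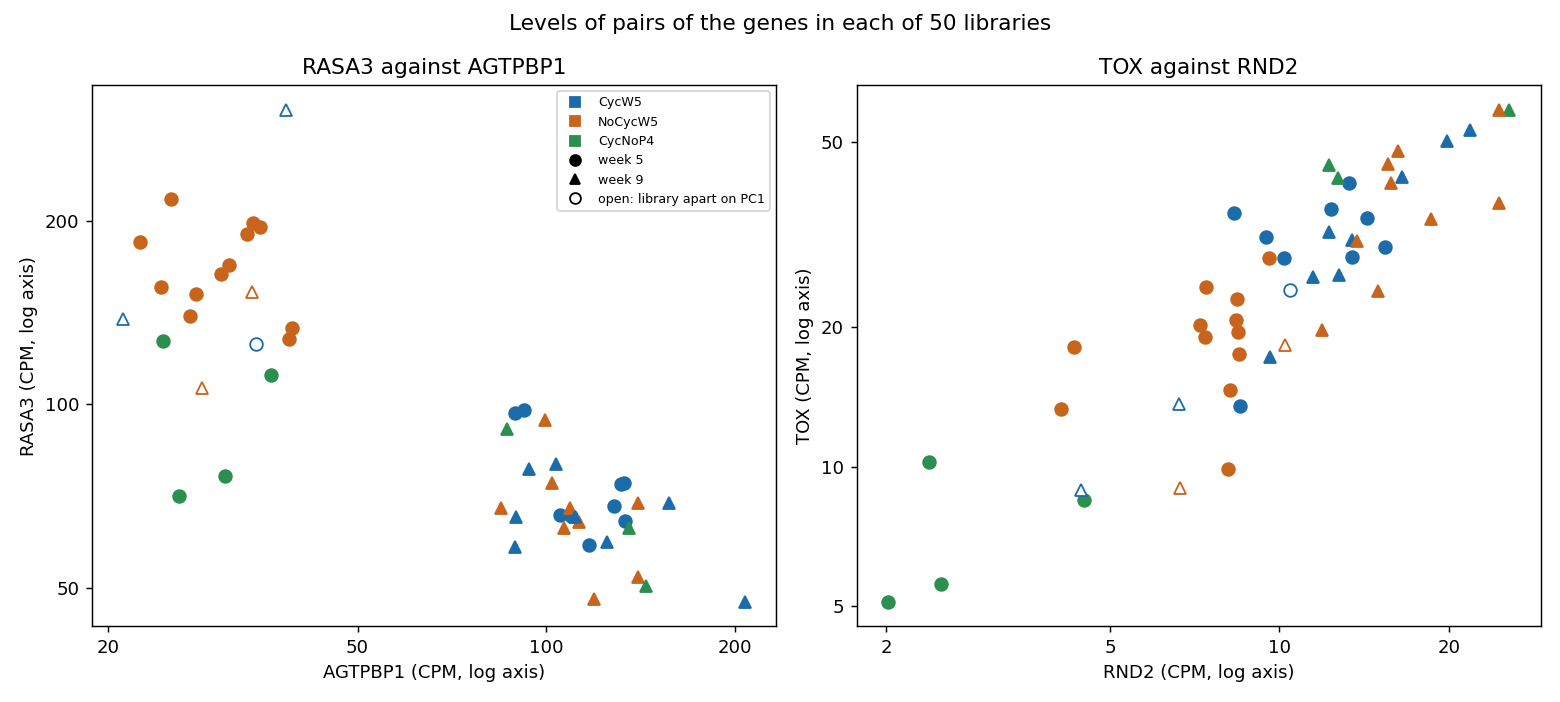
CPM (log axes) of RASA3 against AGTPBP1 and of TOX against RND2 in each of the 50 libraries; colours are cyclicity groups, circles week 5, triangles week 9 and open symbols the 5 libraries apart on PC1. RASA3 and AGTPBP1 form 2 clouds, and the libraries apart lie in the one with low AGTPBP1. The CycNoP4 libraries of week 5 combine AGTPBP1 of at most 36.4 CPM with RASA3 of 70.6 to 127 CPM. So do libraries 57 (34.4 and 126 CPM) and 76 (28.3 and 106 CPM), which had less RASA3 than any NoCycW5 library of week 5. Library 89 (RASA3 of 304 CPM) had more than any of them.

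Over all 50 libraries, and as a description because the groups set much of the spread, OSR1 followed PC1 most closely of the 5 (r = -0.93, 37th of 16120 genes by size), followed by AGTPBP1 (r = -0.92, 80th) and RASA3 (r = 0.86, 326th). RND2 (r = -0.74, 1662nd) and TOX (r = -0.72, 1918th) followed it less closely. The genes with the highest r to each of the 5 were found in the same way. For OSR1 they were FST, which encodes the activin-binding protein follistatin (r = 0.96), ATP1B2, a beta subunit of the sodium pump (0.95), and ENSBTAG00000027438 (0.95). For RND2 they included RMND5B (r = 0.90) and ENSBTAG00000044101 (0.89). For TOX they included RND2 itself (r = 0.88) and PLCD4, a phospholipase C (0.87). For AGTPBP1 they were GM2A, the activator protein of ganglioside GM2 breakdown (r = 0.96), AMACR, a racemase of branched-chain fatty acid oxidation (0.96), and SPDYC (0.95). For RASA3 they were ENSBTAG00000005077 (r = 0.94), NTNG2, a netrin (0.90), and ENSBTAG00000009554 (0.90). After centring on the groups these r ranged from 0.73 (TOX with PLCD4) to 0.93 (OSR1 with FST), over libraries that include those apart.

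Other genes of the pathways of the 5 were taken from lists of 100 genes, of which 19 could be matched to an identifier. All matches are genes called by the study in some comparison, so their counts are not those of whole pathways. At week 5, 5 of the 19 were called in CycNoP4 against CycW5 cows, 1 higher and 4 lower, and 1 in CycNoP4 against NoCycW5 cows, beside 17.9% and 16.4% of all genes. The median log2 fold change of the 19 was 0.22 and 0.004, beside -0.002 and -0.01 over all genes. Leaving out library 57 moved the first count to 8 and leaving out library 51 to 3.

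Of 4 Ras and Rap genes, RASAL1, a GTPase-activating protein related to RASA3, was lower in CycNoP4 than in CycW5 cows (log2 fold change -1.12 ± 0.30, BH P = 0.00910). RRAS2, a Ras family GTPase, was higher (0.39 ± 0.13, BH P = 0.0339). Against NoCycW5 cows, in which RASA3 was highest, RASAL1 had -0.003 ± 0.28. Of 4 HMG-box genes beside TOX, SOX17, a transcription factor of uterine glands and endothelium, was lower in CycNoP4 than in CycW5 cows (-1.50 ± 0.40, BH P = 0.00836) and had 0.10 ± 0.36 against NoCycW5 cows. SOX17 was at 20.2 to 43.6 CPM in CycNoP4, 38.01 to 102 CPM in CycW5 and 12.4 to 41.02 CPM in NoCycW5 cows, a grouping like that of AGTPBP1.

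ROCK2, a protein kinase of the actin cytoskeleton and the 1 matched gene of the RND2 list of 16, was higher in CycNoP4 than in NoCycW5 cows (0.79 ± 0.24, BH P = 0.0195), at 55.9 to 144 CPM against 29.6 to 96.8 CPM. No list gene was called in this comparison without library 51, 56 or 58, and 4 were called without library 64. None of the 4 matched developmental transcription factors of the OSR1 list (EMX2, MSX2, TBX18 and FOXF1) was called in either comparison, with BH P of at least 0.0523. The 1 tubulin glutamylation gene, TTLL5, had -0.55 ± 0.23 against CycW5 cows (BH P = 0.0903) and -0.07 ± 0.22 against NoCycW5 cows.

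Among 5 hormone receptors and responsive genes, ESR2, an estrogen receptor, was lower in CycNoP4 than in CycW5 cows (-1.80 ± 0.57, BH P = 0.0241), as was the WNT inhibitor DKK1 (-2.74 ± 0.70, BH P = 0.00632). DKK1 was at 1.94 to 3.58 CPM in the CycNoP4 libraries, below all CycW5 (4.07 to 32.8 CPM) and all NoCycW5 libraries (4.06 to 7.54 CPM), with a log2 fold change of -1.06 ± 0.63 against the latter (BH P = 0.234). Of all tested genes, 0.0806% were below all 22 other week 5 libraries in this way, and the separation of DKK1 was not tested. ESR1, the main estrogen receptor of the uterus, had 0.63 ± 0.30 against CycW5 (BH P = 0.140) and 0.34 ± 0.30 against NoCycW5 cows (BH P = 0.444). OXTR, the oxytocin receptor that increases in the endometrium around CL regression, was at 120 to 277 CPM in CycNoP4, 5.20 to 151 CPM in CycW5 and 80.3 to 222 CPM in NoCycW5 libraries, with 2.17 ± 0.83 against CycW5 (BH P = 0.0606) and 0.73 ± 0.83 against NoCycW5 cows (BH P = 0.558). The P4 receptor PGR was not analysed here, as no identifier was matched.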

How the data were processed

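Reads of stranded mRNA libraries were trimmed, aligned to UMD3.1 with Hisat2 and counted on Ensembl genes with FeatureCounts by the study's methods; the submitters' processing notes also name StringTie and edgeR, with no role. The deposited values are counts per gene, not normalized by the authors, and 0 columns of the table were left unused. Symbols come from the study's own gene tables (2324 of 2729 listed genes have one), whose fold changes and P were not used.

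R 4.3.3, edgeR 4.0.16, limma 3.58.1, DESeq2 1.42.0 and scipy 1.17.1 were used. Counts of all 50 libraries were filtered with filterByExpr, scaled by TMM and entered 1 robust quasi-likelihood fit with a mean for each of the 6 groups; BH adjustment was over all genes tested, and a BH P of 0.05 or less was called. Log2 CPM used a prior count of 2; 95% intervals of fold changes are normal intervals from the SE. P-values measure the spread between libraries, since the labels do not name cows. The fit was also run on simulated counts, drawn independently for each library with some genes changed in a group. Those counts held no libraries apart and no cows sampled in both weeks, so that run says nothing about the effect of either. The study's limma model with cow and microbiota terms could not be fitted.

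The 5 genes and all lists were chosen with earlier results of these data known. Genes named were the 5, list genes called at week 5 in CycNoP4 cows (at most 4 a list), the 3 genes with the highest r to each of the 5, ESR1, PGR and OXTR, and markers beside a result. Alternatives were other size factors, DESeq2, limma-voom without and with library weights, other filters, fits of 1 week or of CycW5 and NoCycW5 groups only, other log2 CPM settings, and leaving out libraries. Leaving out the libraries apart was chosen after seeing the data. Sequences and coordinates were not analysed here. 1 of the genes found by r is not reported here.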

Additional observations from a re-analysis of the deposited data

Results flagged for a closer look

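In the CycW5 cows at week 5, a single library stood apart from the other 9 for each of 2 genes. TOX was at 13.5 CPM in library 52, and AGTPBP1 was at 34.4 CPM in library 57. In all, 15 sets, each the values of a gene in a group, were examined for such gaps and 2 stood out, where chance gives about 1 in 20. The sets share libraries and are not independent. Only groups of 4 to 10 libraries were examined, so the NoCycW5 groups and the CycNoP4 cows of week 9 were not. The gap is taken between the farthest library and the next, so 2 libraries that stand apart together can be missed. In CycW5 cows at week 9, OSR1 was at 3.50 and 11.7 CPM in libraries 87 and 89 and at 72.8 CPM or more in the others, and no gap was flagged.

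For 4 genes, NoCycW5 cows changed between the weeks in another way than CycW5 cows, by the test of the difference itself. That test called 7.66% of all genes. The genes were chosen as low in relation to the week 5 libraries of both groups, so nothing is read from the number called. The difference on the log2 scale was 2.49 for OSR1, 0.91 for RND2, 1.72 for AGTPBP1 and -1.40 for RASA3. With limma-voom the calls of OSR1 and RND2 were lost (BH P = 0.0536 and 0.0633). RND2 was also not called in 27 of the 43 fits that left out a single library.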

How the results depend on the processing

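No paired analysis was possible because the labels do not tie libraries to cows and library numbers differ between groups. The number of the 5 genes called was within 1.5 times its value in each alternative, except that limma-voom called 2 of the 5 for the difference between the changes (OSR1 BH P = 0.0536, RND2 BH P = 0.0633). No called fold change of the 5 genes turned its sign. Leaving out single libraries gave 4 to 5 genes for CycW5 against NoCycW5 cows at week 5 and 3 to 4 for the difference between the changes; for the latter, RND2 was lost without any 1 of libraries 12, 13, 45, 66, 67, 70, 44, 47, 48, 49, 55, 61, 63, 68, 83, 87, 89, 97, 98, 74, 75, 80, 82, 90, 93, 95 and 99, and with no filter (BH P = 0.0536). The cause was not tested.

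The number of pathway genes called in CycNoP4 against CycW5 cows at week 5 was 3 with limma-voom, 9 without the libraries apart and 3 to 8 when leaving out single libraries. Against NoCycW5 cows it was 1, but 2 with DESeq2, the stricter filter or the fit of 1 week, 3 with limma-voom, 4 with library weights, 5 without the libraries apart and 0 to 4 when leaving out single libraries. The number of genes called between weeks in CycW5 cows was 20, and 0 with limma-voom, 7 in the fit of CycW5 and NoCycW5 groups, 8 with no filter, 43 without the libraries apart, 251 with DESeq2 and 3013 with library weights. For the difference between the changes it was 1234, and 578 with limma-voom, 1879 with DESeq2, 2238 without the libraries apart and 3115 with library weights. With library weights, 8765 genes were called between weeks in NoCycW5 cows, against 5551. With 3 CycNoP4 libraries at week 9, the SE of the fold changes was 0.31 to 0.61 on the log2 scale, which limits what could be detected there.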

Other observations

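Of the 19 pathway genes with an identifier, 5 were higher and 5 lower in CycW5 than in NoCycW5 cows at week 5, beside 25.6% of all genes called. Of the OSR1 list, EMX2 (log2 fold change -0.38 ± 0.12, BH P = 0.0143), MSX2 (-1.15 ± 0.36, BH P = 0.0147) and FOXF1 (-0.38 ± 0.13, BH P = 0.0248) were lower in CycW5 cows, while OSR1 itself was higher. ESR2 (2.72 ± 0.39, BH P = 1.05e-06), SOX17 (1.60 ± 0.27, BH P = 1.69e-05), RASAL1 (1.12 ± 0.21, BH P = 7.00e-05) and DKK1 (1.68 ± 0.43, BH P = 0.00338) were higher. From week 5 to week 9 in NoCycW5 cows, 4 of the 19 rose and 7 fell, beside 34.4% of all genes called, and edgeR called none of the 19 and 0% of all genes in the week 9 comparisons of groups. EMX2, MSX2 and FOXF1 are named here although they fall outside the rule for named genes, and were chosen after their values were seen. All 19 were called by the study in some comparison on part of these libraries, so these directions are not independent evidence.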
